A study of Mus musculus with 6 samples.

Results

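The genes described here are the growth factor Fgf4, the receptors Fgfr1 and Fgfr2, and 7 genes that ERK signalling switches on and that mostly act back on it: Spry2, Spry4, Spred1, Dusp4, Dusp6, Etv4 and Etv5. They were chosen by name, as all probe sets whose platform annotation gives 1 symbol and that symbol is one of the 10. The array holds 31 such probe sets among 45037 without Affymetrix controls, and 10 of the 18193 genes that have a probe set with 1 symbol. The mean over all arrays was at least 5 log2 for 27 of the 31 and lower for 4. The brightest probe set of a gene, as used throughout, is the one with the highest mean over all arrays.

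The cells were mouse embryonic stem (ES) cells of the line EBRTcH3, grown in serum with leukemia inhibitory factor. They carried the human WBSCR1 coding sequence, the counterpart of the mouse translation initiation factor gene Eif4h, with a 3xFLAG tag at the ROSA26 locus behind a promoter that tetracycline silences. Induced cells had been 24 h without tetracycline and control cells were kept in it, and each of the 3 clones A1, A3 and A4 (replicates 1, 2 and 3) gave 1 induced and 1 control array. All 6 arrays therefore carry the transgene, induction cannot be told apart from the removal of tetracycline, and each clone is a single line sampled on a pair of arrays. Signals are log2 values of the robust multiarray average (RMA), so that a difference of 1 is a doubling, and a level is compared only within a probe set. A probe set is called where its adjusted p in limma (Benjamini-Hochberg over all 45037) is under 0.05. The p-values of induction without a block rest on the spread between arrays of the same condition. Those between clones, or with clone as a block, rest on the spread left after clone and condition.

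FGF4 is the main fibroblast growth factor that mouse ES cells secrete for themselves. It binds FGF receptors, which are tyrosine kinases, and through Ras and the kinases Raf, MEK and ERK it moves cells away from naive self-renewal and, in the early embryo, towards primitive endoderm. ERK activity in turn raises the transcription of its own brakes and of the PEA3 group of ETS transcription factors, so the RNA levels of Spry, Spred, Dusp and Etv genes are widely read as an output of the pathway. ERK does so in part by removing the repressor Capicua from its octamer sites in these genes.

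Promoter windows of 300 bases (250 before to 50 after the RefSeq start, assembly GRCm38.p6) were at hand for 6 of the 10 genes in 7 windows, with a pair for Etv5. The 150 bases before the start are printed for the ligand and for 3 inhibitors, because the comparison of clones called Spry2 and Spred1 and did not call Fgf4 and Dusp6. Capitals mark a Capicua octamer in Spry2 and Dusp6 and overlapping TATATA hexamers in Fgf4, and Spred1 has neither. The windows lie at chr7:144861236-144861385 on the plus strand for Fgf4, at chr14:105896820-105896969 on the minus strand for Spry2, at chr2:117120921-117121070 on the plus strand for Spred1 and at chr10:99263081-99263230 on the plus strand for Dusp6.
Fgf4: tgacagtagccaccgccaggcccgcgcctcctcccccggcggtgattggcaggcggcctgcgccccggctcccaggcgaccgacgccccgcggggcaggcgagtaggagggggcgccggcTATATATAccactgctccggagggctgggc
Spry2: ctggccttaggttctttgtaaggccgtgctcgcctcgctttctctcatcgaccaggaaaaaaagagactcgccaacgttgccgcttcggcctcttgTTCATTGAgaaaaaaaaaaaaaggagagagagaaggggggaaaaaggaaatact
Spred1: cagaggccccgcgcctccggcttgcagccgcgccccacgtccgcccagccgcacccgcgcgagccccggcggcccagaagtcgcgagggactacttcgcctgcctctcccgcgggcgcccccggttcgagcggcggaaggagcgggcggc
Dusp6: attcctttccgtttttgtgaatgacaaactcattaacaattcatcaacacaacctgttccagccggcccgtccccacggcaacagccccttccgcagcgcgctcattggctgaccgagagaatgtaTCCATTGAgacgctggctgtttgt

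The octamers searched on both strands were TGAATGAA, TGAATGGA, TCAATGAA and TCAATGGA, and 3.84% of 32851 mouse promoter windows of the same length hold at least 1. Spry2 had 1 at position -54, read on the coding strand as TTCATTGA, and Dusp6 had TCCATTGA at -24 and again at 2, where 1 is the first transcribed base. The windows of Fgf4, Fgfr2, Spred1 and Etv5 held none of these letters. AGGAAG, the hexamer bound by PEA3 factors, is in 35.4% of all windows and was in those of Fgfr2 (at -208 and 39), Dusp6 (at -210) and 1 of the Etv5 windows (at 2). CCGGAAG, an ETS heptamer that shares GGAAG with it but cannot match at the same place, is in 8.86% and was in 0 of the 7. TATATA, in 5.67% of windows, was found in Fgf4 at -30 and -28, the usual place of a TATA box. None of these matches was tested as a binding site.

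Induction left the ligand, the receptors and the feedback genes without a called change. Of the 31 probe sets 0 were called by limma and 1 had an unadjusted p under 0.05, against 0% and 1.5% (676 probe sets) of all 45037. The median change was 0.0048 log2 over the 31 and -0.0031 over all. Changes ran between -0.23 and 0.24 log2, with 17 probe sets higher and 14 lower, and the adjusted p was 0.9999 for each. Among the 27 brighter probe sets the 95% intervals reached no further than -1.08 and 0.97 log2, and no further than -0.47 and 0.49 log2 with clone as a replicate block. With the block 3 of the 31 had an unadjusted p under 0.05 in limma, against 3.42% of all probe sets. In a culture, fewer cells that express a gene and less of its RNA in each cell cannot be told apart.

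**Figure D1:**
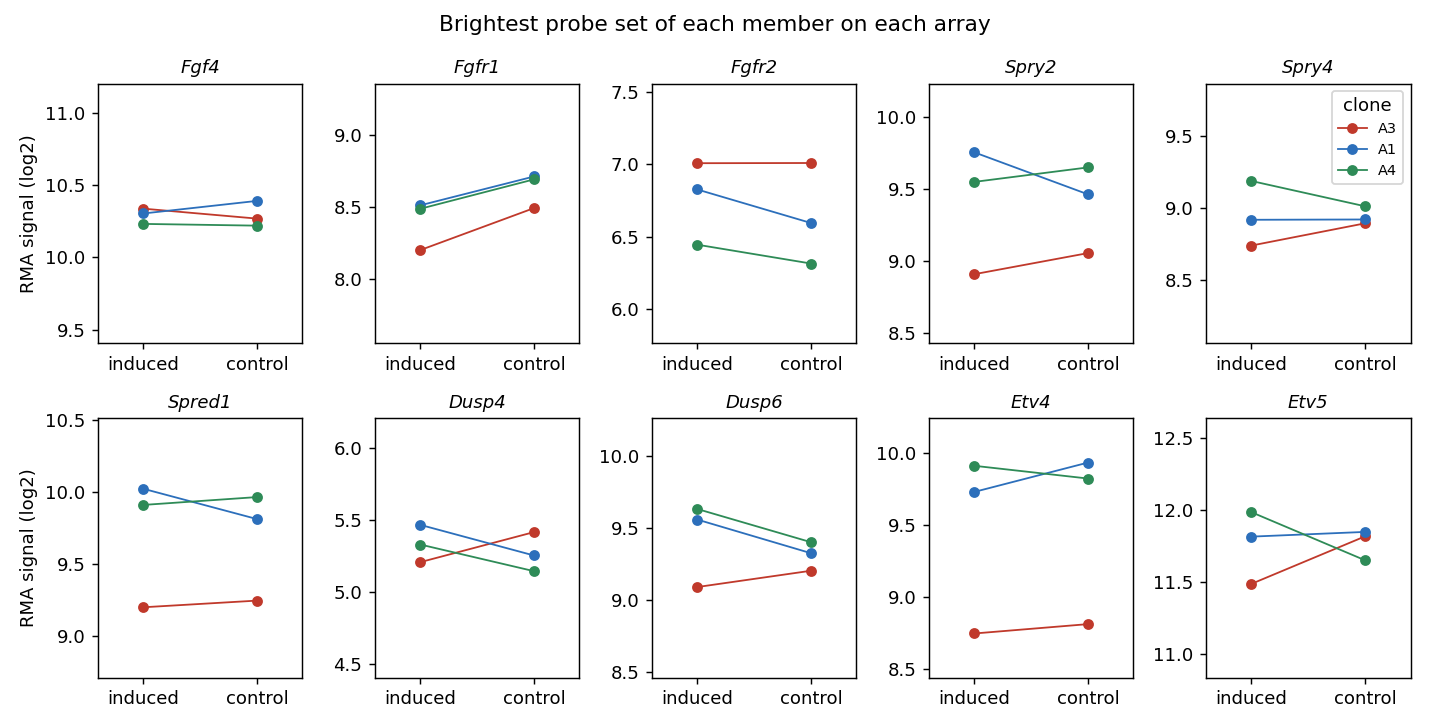
RMA signal (vertical axis, log2, the same span in every panel) of the brightest probe set of each gene on the induced and the control array of clones A3, A1 and A4, with a line joining the arrays of a clone. The Etv4 and Spred1 lines of A3 lie below those of A1 and A4, at 8.75 and 8.81 for Etv4, while the Fgf4 lines lie within 0.17 log2 of each other.

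Fgf4 signal stayed within a narrow range on its brightest pair of probe sets, which share a source sequence and are not independent readings. The brightest had 10.31, 10.34 and 10.23 log2 in the induced arrays of A1, A3 and A4, against 10.39, 10.27 and 10.22 in their control arrays. The next had 10.26, 10.31 and 10.26 log2 in induced and 10.37, 10.23 and 10.22 in control arrays. The groups overlapped on both, and the change on the brightest was -0.0020 ± 0.094 log2 (SE), with a 95% interval of -0.22 to 0.22. A dimmer probe set, from another source sequence, had a wider range of 0.53 log2. It had 8.06, 8.49 and 8.30 log2 in induced and 8.19, 8.44 and 7.96 in control arrays, which also overlap. The dimmest, at a mean of 3.60 log2, was the only one of the 31 with an unadjusted p under 0.05 (0.0463, adjusted p in limma 0.9999). It was higher in each clone, by 0.21, 0.23 and 0.25 log2 in A1, A3 and A4.

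Fgfr1, the main FGF receptor of ES cells, was the only gene of the 10 with more than 1 probe set and all of them lower on induction in every clone. The brightest had 8.51, 8.20 and 8.49 log2 in the induced arrays of A1, A3 and A4, against 8.71, 8.49 and 8.69 in control arrays. The change was -0.23 ± 0.12 log2 (SE, 95% interval -0.51 to 0.051), with an unadjusted p of 0.0949 in limma. The second had 7.84, 7.46 and 7.82 log2 in induced and 7.93, 7.70 and 7.99 in control arrays, and the third 5.94, 5.93 and 5.83 in induced and 6.08, 6.02 and 5.95 in control arrays. Their changes were -0.17 ± 0.14 and -0.12 ± 0.092 log2. A shared direction in all clones held for 5 of the 31 probe sets (3 of Fgfr1 lower, 1 of Fgf4 and 1 of Spry4 higher) and for 21.8% of all probe sets. With clone as a replicate block the brightest reached an unadjusted p of 0.0354, and the adjusted p stayed at 0.9999.

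Fgfr2, which takes part with Fgfr1 in primitive endoderm formation, had 6.83, 7.01 and 6.44 log2 in the induced arrays of A1, A3 and A4, against 6.59, 7.01 and 6.31 in control arrays. Its second probe set had 5.53, 6.08 and 5.45 log2 in induced and 5.67, 6.50 and 5.32 in control arrays. The clones are spread more widely than the conditions on both, and the changes, 0.12 ± 0.21 and -0.14 ± 0.30 log2 (SE), differ in sign. The third was dim, with a mean of 3.80 log2 and a change of 0.010.

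On their brightest probe sets the feedback genes showed small changes that the clones did not share. In clones A1, A3 and A4, Spry2 changed by 0.29, -0.15 and -0.10 log2, Spred1 by 0.21, -0.046 and -0.054, Dusp4 by 0.21, -0.21 and 0.19, and Dusp6 by 0.23, -0.11 and 0.23, each on the brightest probe set. Spry4 changed by -0.0020, -0.15 and 0.18 log2, Etv4 by -0.20, -0.065 and 0.088, and Etv5 by -0.033, -0.33 and 0.33. Their mean changes lay between -0.060 log2 (Etv4, 95% interval -0.94 to 0.82) and 0.12 log2 (Dusp6, -0.24 to 0.48). These intervals, without a block, include the differences between clones. With clone as a replicate block they were -0.29 to 0.17 log2 for Etv4 and -0.13 to 0.37 for Dusp6. On the brightest probe set no gene of these 7 kept one sign in all clones. The largest mean change was that of a dimmer Spry4 probe set, 0.24 ± 0.12 log2 (SE), which was higher in each clone. It had 6.10, 6.31 and 6.17 log2 in induced and 5.80, 6.12 and 5.93 in control arrays. With clone as a replicate block its unadjusted p was 0.0301 in limma, and its adjusted p 0.9999. The other Spry4 probe sets did not follow that one, with -0.050, 0.0064 and 0.085 log2.

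**Figure D2:**
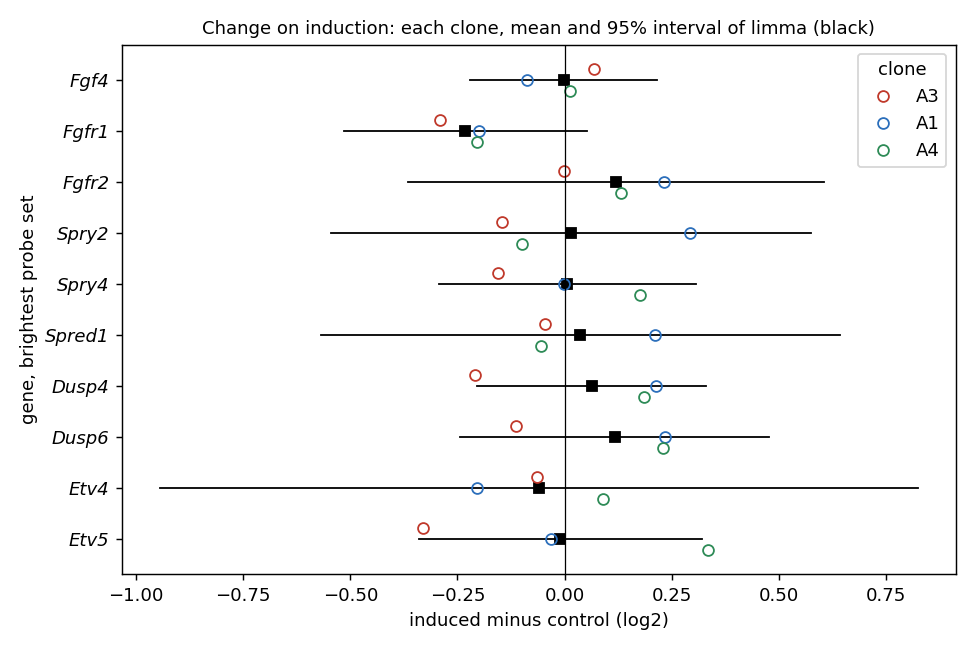
Change on induction (horizontal axis, log2, induced minus control) of the brightest probe set of each gene, with circles for clones A3, A1 and A4 and black squares for the mean with its 95% interval from limma without a block. All 10 intervals cross 0, and the Etv4 interval is the widest, from -0.94 to 0.82.

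The clones differed, and most of the difference was that of A3. The limma F test over clones called 9 of the 31 probe sets, against 5.54% of all probe sets. Set against A1 and A4 averaged, A3 was called lower at 9 of the 31 and higher at 2, against 5.68% and 3.89% of all. The lower calls belonged to Spred1 (6 of its 8 probe sets), Etv4 (both) and Spry2 (1 of 2), and the higher calls to Fgfr2 (2 of 3), and 0 probe sets of the other 6 genes were called. The median difference was -0.19 log2 over the 31 and 0.031 over all probe sets. On brightest probe sets alone, 3 of the 10 genes were lower and 1 was higher, against 6.32% and 5.13% of 18193 genes. Both A3 arrays lay below all of the other 4 arrays at 13 of the 31 probe sets and above them at 4, where the shares over all probe sets were 16.6% and 19.8%. The contrast was taken up because earlier results of these data had set A3 apart, and it compares 1 clone with 2 others, so its p-values do not cover the spread between clones of one kind.

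Among the array controls, poly-A spikes and the actin difference separated the A3 arrays from the others. Poly-A spikes, bacterial RNAs added at labelling, averaged 7.43 and 7.58 log2 over 12 probe sets in the induced and control arrays of A3, against 6.12 to 6.49 in the other 4. The 3' minus 5' difference of actin, a measure of RNA integrity, was 0.29 and 0.32 log2 in A3 against 0.40 to 0.45. The other controls overlapped. Hybridization spikes (9 probe sets) averaged 10.44 and 10.60 log2 in A3 against 10.19 to 10.46, 18S ribosomal RNA (3 probe sets) 7.27 and 6.61 against 5.66 to 7.03, and the Gapdh difference was 0.078 and -0.0073 against 0.054 to 0.10. Their part in the differences between clones was not tested.

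**Figure D3:**
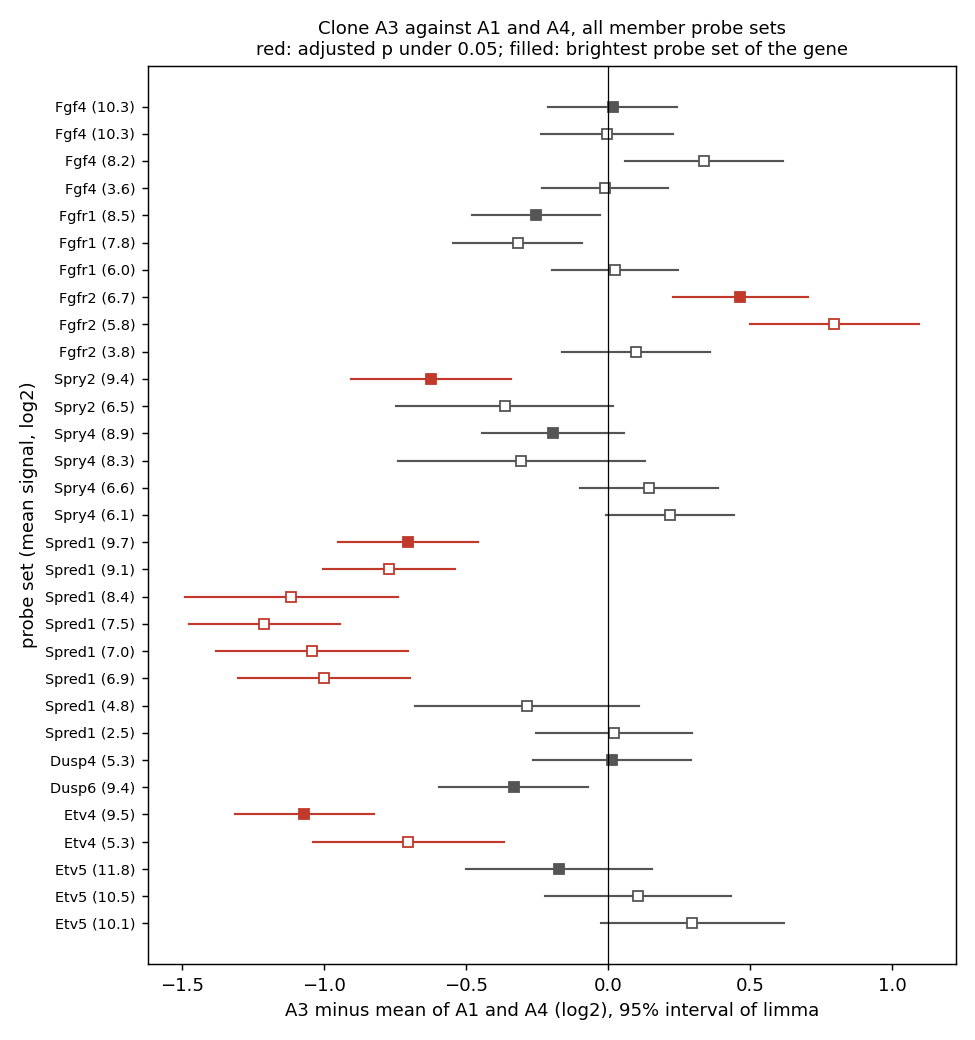
Difference between A3 and the mean of A1 and A4 (horizontal axis, log2, with the 95% interval from limma) for all 31 probe sets, named by gene and mean log2 signal, with the brightest filled and called ones in red. Spred1, Etv4 and Spry2 hold the called negative values, the lowest at -1.21, and Fgfr2 the called positive ones, the highest at 0.80.

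The PEA3 factor Etv4 had the largest range over the 6 arrays of any brightest probe set, 1.19 log2. It had 8.75 and 8.81 log2 in the induced and control arrays of A3, against 9.73 and 9.93 in those of A1 and 9.91 and 9.82 in those of A4. A3 lay below every other array, at 8.78 ± 0.046 log2 (SD, n = 2 arrays) against 9.85 ± 0.093 (n = 4 arrays). The difference was -1.07 ± 0.11 log2 (SE), 2.10-fold lower, with an adjusted p of 0.00145 in limma, and it was -1.07 among induced and -1.07 among control arrays. It was called under all 14 alternatives, between -1.14 and -1.004 log2. The dimmer Etv4 probe set had 5.05 and 4.68 log2 in the induced and control arrays of A3, against 5.67 and 5.32 in A1 and 5.51 and 5.76 in A4. It was also lower in A3, by -0.70 ± 0.15 log2 (SE, adjusted p 0.0229 in limma), and called under 8 of 13 alternatives. That call was lost without induced replicate 1 or 2, control replicate 1 or 2, or both induced replicate 1 and control replicate 3.

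Etv5, the other PEA3 factor measured, was not called. Its brightest probe set had 11.48 and 11.81 log2 in the induced and control arrays of A3, against 11.81 and 11.85 in A1 and 11.98 and 11.65 in A4. The second had 10.46 and 10.63 log2 in A3, against 10.25 and 10.54 in A1 and 10.65 and 10.31 in A4. The third had 10.23 and 10.32 log2 in A3, against 9.81 and 10.07 in A1 and 10.19 and 9.83 in A4. A3 overlapped the other clones on the first and second and lay just above them on the third. The differences, -0.17, 0.11 and 0.30 log2, had both signs, and the 95% interval of the brightest was -0.50 to 0.15 log2.

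Spred1, a membrane protein that blocks the activation of Raf, gave the most called probe sets. It also has the most probe sets of the 10 genes, and several share a source sequence, so its calls are not independent readings. The brightest had 9.20 and 9.25 log2 in the induced and control arrays of A3, against 10.02 and 9.81 in A1 and 9.91 and 9.97 in A4. A3 averaged 9.23 ± 0.033 log2 (SD, n = 2 arrays) against 9.93 ± 0.090 (n = 4 arrays), a difference of -0.70 ± 0.11 (SE, 1.63-fold lower, adjusted p 0.00680 in limma). The largest difference of the 31 probe sets was that of Spred1 1452911_at, which had 6.60 and 6.79 log2 in A3, against 7.88 and 7.96 in A1 and 7.99 and 7.79 in A4. It was -1.21 ± 0.11 log2 (SE, 2.31-fold lower, adjusted p 0.00122), and -1.34 among induced and -1.08 among control arrays.

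The other called Spred1 probe sets lay between these. Spred1 1423161_s_at had 8.57 and 8.60 log2 in A3, against 9.46 and 9.28 in A1 and 9.39 and 9.30 in A4. Spred1 1460116_s_at had 7.41 and 7.89 log2 in A3, against 8.56 and 8.76 in A1 and 9.04 and 8.70 in A4. Spred1 1423162_s_at had 6.11 and 6.46 log2 in A3, against 7.53 and 7.18 in A1 and 7.26 and 7.33 in A4. On all of these A3 was below every other array, with differences of -0.77, -1.12 and -1.04 log2 (adjusted p 0.00401, 0.00590 and 0.00520 in limma). Spred1 1428777_at had 6.23 and 6.28 log2 in A3, against 7.17 and 7.32 in A1 and 7.45 and 7.07 in A4, a difference of -0.9996 ± 0.13 (SE, adjusted p 0.00401). Without induced replicate 2 the calls of Spred1 1452911_at and 1428777_at held and the other 4 were lost. Without both induced replicate 1 and control replicate 3 those of Spred1 1423160_at (the brightest), 1423162_s_at and 1460116_s_at were lost. The remaining pair, both under 5 log2, read -0.29 and 0.022 log2 and was not called.

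The Sprouty genes encode inhibitors that ERK signalling induces and that act upstream of or at Ras and Raf. Spry2 had 8.91 and 9.06 log2 in the induced and control arrays of A3, against 9.76 and 9.46 in A1 and 9.55 and 9.65 in A4. A3 lay below every other array, by -0.62 ± 0.12 log2 (SE, 1.54-fold lower, adjusted p 0.0184 in limma), with -0.74 among induced and -0.50 among control arrays. The call was kept under 10 of 14 alternatives and lost without induced replicate 1 or 2, control replicate 3, or both induced replicate 1 and control replicate 3. The second Spry2 probe set had 6.13 and 6.32 log2 in A3, against 6.86 and 6.41 in A1 and 6.36 and 6.72 in A4, and its difference of -0.36 ± 0.16 log2 was not called (adjusted p 0.227).

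Spry4 was not called, and its probe sets differed in sign. The brightest had 8.74 and 8.90 log2 in A3, against 8.92 and 8.92 in A1 and 9.19 and 9.02 in A4, and the second 7.84 and 8.32 in A3, against 8.62 and 8.08 in A1 and 8.51 and 8.32 in A4. The third had 6.59 and 6.79 log2 in A3, against 6.45 and 6.48 in A1 and 6.66 and 6.58 in A4, and the fourth 6.31 and 6.12 in A3, against 6.10 and 5.80 in A1 and 6.17 and 5.93 in A4. The differences were -0.19, -0.31, 0.14 and 0.22 log2 in that order, and only on the brightest did A3 lie apart from the other arrays.

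Dusp6 and Dusp4, the ERK phosphatases among the 10 genes, were not called either. A further ERK phosphatase outside the 10, Dusp9, was called lower in A3 on its brightest probe set (-0.63 ± 0.11 log2, SE, adjusted p 0.0129 in limma). Dusp6, a cytoplasmic phosphatase specific for ERK, had 9.09 and 9.20 log2 in the induced and control arrays of A3, against 9.56 and 9.33 in A1 and 9.63 and 9.40 in A4. Both A3 arrays were below all others, and the difference was -0.33 ± 0.11 log2 (SE, 95% interval -0.60 to -0.069, adjusted p 0.120 in limma). Dusp4, a nuclear phosphatase, had 5.21 and 5.41 log2 in A3, against 5.46 and 5.25 in A1 and 5.33 and 5.14 in A4. Its arrays overlapped, with a difference of 0.013 ± 0.12 log2 (SE, 95% interval -0.27 to 0.29).

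Of the receptors, Fgfr2 was called and Fgfr1 was not. Fgfr2 was higher in A3, whose induced and control arrays both had 7.01 log2, against 6.83 and 6.59 in A1 and 6.44 and 6.31 in A4. The difference was 0.47 ± 0.10 log2 (SE, 1.38-fold, adjusted p 0.0287 in limma), with 0.37 among induced and 0.56 among control arrays. This call was lost on leaving out any 1 of the 6 arrays, and the adjusted p ranged from 0.0125 to 0.175 over the 14 alternatives. The second Fgfr2 probe set had 6.08 and 6.50 log2 in A3, against 5.53 and 5.67 in A1 and 5.45 and 5.32 in A4, all below A3. Its difference of 0.80 ± 0.13 log2 (SE, 1.74-fold, adjusted p 0.00893) was called under 10 of 13 alternatives, and lost without induced replicate 1, control replicate 2, or both induced replicate 1 and control replicate 3. The Fgfr1 differences were -0.25 ± 0.097 and -0.32 ± 0.098 log2 (SE, adjusted p 0.156 and 0.0903) on the brighter ones, whose values stand above, and 0.026 on the dimmest.

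The ligand was not called between clones. Fgf4 averaged 10.30 ± 0.049 log2 in A3 (SD, n = 2 arrays) against 10.29 ± 0.079 in A1 and A4 (n = 4 arrays), a difference of 0.016 ± 0.098 (SE, 95% interval -0.21 to 0.24). The second gave -0.0035 ± 0.10 log2. The third, with 8.49 and 8.44 in A3 above all other arrays, gave 0.34 ± 0.12 log2 (SE), which was not called (adjusted p 0.132 in limma).

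Between A1 and A4 no difference was called. Of the 31 probe sets 0 were called, against 8 of all probe sets (0.0178%), and 1 of the 31 and 1954 of all had an unadjusted p under 0.05 in limma. The differences, A1 minus A4, ran from -0.20 to 0.33 log2. The highest was that of the brightest Fgfr2 probe set, 0.33 ± 0.12 log2 (SE, unadjusted p 0.0233, adjusted p 1), where both A1 arrays lay above both A4 arrays and below both of A3. For Etv4 the difference was -0.035 log2 (95% interval -0.32 to 0.25), and for Spred1 -0.020 (-0.31 to 0.26). A change of at least 1 log2 upward in A1 and downward in A4 was seen at 63 of all 45037 probe sets and at 0 of the 31. So rare a change would seldom fall on any 31 probe sets, and the 0 is no result about these genes.

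The genes nearest to Fgf4 and Etv4 were sought by the root mean square difference of profiles over the 6 arrays, each centred on its own mean, among 7533 probe sets of other genes with a mean of at least 5 and a range of at least 0.5 log2. For Etv4 they were Psmf1, a proteasome inhibitor (0.040 log2), the ERK phosphatase Dusp9 (0.050) and the cold-inducible RNA-binding protein Cirbp (0.056). The range of Fgf4 itself was 0.17 log2, so genes as flat as Fgf4 were left out by the limit on range. The nearest to it among those kept were Car7, a carbonic anhydrase (0.11 log2), Scrn1 (0.11) and the RNA-binding protein Tia1 (0.11). These are descriptions over 6 arrays that share their clones.

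The wider pathway was read on the brightest probe set of each gene. On induction limma called 0 genes of the 4 pathway lists, and between A1 and A4 also 0. Of 14 genes for further FGF ligands, the carrier Fgfbp1 included, 1 was called higher and 2 lower in A3, where 5.13% and 6.32% of all genes were. These were Fgf15 (0.65 ± 0.12 log2, SE, adjusted p 0.0144), Fgf17 (-0.96 ± 0.10, adjusted p 0.00176) and Fgfbp1, which releases FGFs from the matrix (-1.29 ± 0.11, adjusted p 0.000877). The median of the list was 0.0032 log2, against 0.038 over all 18193 genes, and only 7 of the 14 averaged at least 5 log2. Of 10 measured receptors and cofactors only Ext1, which makes heparan sulfate chains, was called (-0.45 ± 0.10 log2, SE, adjusted p 0.0304), while Hs6st1, which sulfates them, gave -0.34 and the decoy receptor Fgfrl1 0.47 log2 (adjusted p 0.0772 and 0.103). The median of that list was -0.0080 log2, and only 1 of the 2 Ext1 probe sets, the one given here, was lower in A3.

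Of 15 measured adaptors and kinases between receptor and ERK, limma called Map2k1, which encodes MEK1, higher in A3 (0.40 ± 0.10 log2, SE, adjusted p 0.0381) and the kinase Braf lower (-0.55 ± 0.10, adjusted p 0.0168). At 1 of 15 in each direction the list was near the shares over all genes, and its median was -0.0091 log2. Sos2, an exchange factor of Ras, was among the 3 genes with the smallest F test p (adjusted p 0.0612), with 4.40 and 4.36 log2 in the induced and control arrays of A3, 5.04 and 4.67 in A1 and 4.40 and 4.11 in A4. Of 24 further feedback and target genes 3 were called higher and 5 lower in A3, where 5.13% and 6.32% of all genes were. The median of that list was -0.038 log2. The ETS factor Elk3 was higher by 1.46 ± 0.15 log2 (SE, adjusted p 0.00168) and the immediate early gene Egr1 by 1.21 ± 0.12 (0.00159), while Phlda1 was lower (-0.98 ± 0.10, 0.00159). The other calls were Il17rd, higher, and Dusp9, Ccnd1, Epha2 and Epha4, lower. Whether the RNA of each listed gene responds to ERK in these cells was not tested. On induction the smallest unadjusted p in the lists were those of Fgf2 (-0.17 log2, p 0.0942), the co-receptor Kl (-0.38, p 0.0144), the adaptor Gab2 (-0.24, p 0.0581) and the early response gene Ier3 (0.39, p 0.258), with an adjusted p of 0.9999 in limma for each. Fgf2 and Kl are dim, with means of 2.41 and 3.78 log2 over all arrays.

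**Figure D4:**
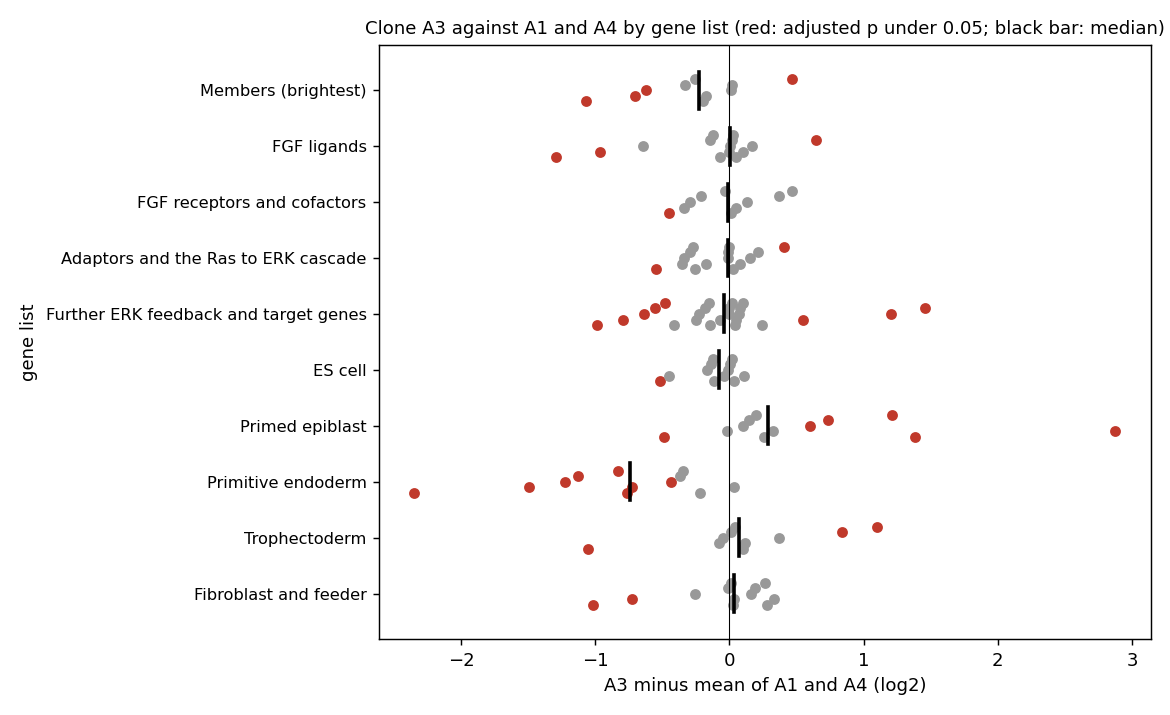
Difference between A3 and the mean of A1 and A4 (horizontal axis, log2) of the brightest probe set of each gene in the 10 genes described, the 4 pathway lists and 5 lists of cell type markers, called genes in red and medians as black bars. Primitive endoderm markers lie to the left, with a median of -0.74, and primed epiblast markers to the right, with a median of 0.29.

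Among the marker lists, primitive endoderm and primed epiblast markers held the most calls for A3, where 5.13% of all genes were called higher and 6.32% lower. The 12 ES cell markers all read at least 5 log2, with a mean over the list of 11.87 to 11.97 log2 in the A3 arrays against 12.01 to 12.10 in the others, and 1 was called lower. Of 12 measured primed epiblast markers 5 were called higher and 1 lower in A3, with list means of 7.78 to 7.96 log2 in A3 against 7.22 to 7.30. Otx2 had the largest of these differences (2.88 ± 0.16 log2, SE), and 6 were not called, Fgf5, Dnmt3b and Pou3f1 among them. Of 12 primitive endoderm markers 0 were called higher and 8 lower, with list means of 5.14 to 5.16 log2 in A3 against 5.74 to 6.22, and 9 of the 12 averaged at least 5 log2 over all arrays. Trophectoderm markers (2 of 10 higher, 1 lower) averaged 5.89 log2 on both A3 arrays against 5.64 to 5.87, and fibroblast markers (0 of 12 higher, 2 lower) 5.30 to 5.37 against 5.35 to 5.44. The part of these cell states in the lower Etv4, Spred1 and Spry2 and the higher Fgfr2 signal of A3 was not tested.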

How the data were processed

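RNA of 3 clones, each with 1 induced and 1 control culture, was read on 6 Affymetrix whole-genome mouse arrays. The deposited values are log2 signals, summarized by the authors with RMA from the affy package of Bioconductor (version not given in the sources used here). No further normalization was applied in the main tests. The 64 Affymetrix control probe sets of 45101 were left out of the tests, array medians were 5.11 to 5.19 log2, and the number of arrays limits the precision. GEO's platform annotation gave 1 symbol for 34945 probe sets, several for 932 and none for 9160, and probe sets with several symbols gave no gene names.

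Groups, clones and replicate numbers came from the sample labels. Induction was tested in R 4.3.3 with limma 3.58.1 (lmFit, eBayes) on condition alone. The study's methods name a t-test of induced against uninduced cells and do not state whether it was paired. It was taken here as unpaired. Clones were compared in a fit of clone and condition, by an F test and by the contrasts A3 minus the mean of A1 and A4 and A1 minus A4. All tests were two-sided with Benjamini-Hochberg adjustment over 45037 probe sets at 0.05. The tests were run on simulated data before use. A minimum recovery of added changes was required there of the blocked and the clone tests, but not of the induction test without a block. Replicate numbers pair the arrays because each number is 1 clone. After subtraction of the group means, the arrays of a clone correlated over all probe sets at 0.670 (A3), 0.313 (A1) and 0.290 (A4). Plots used matplotlib 3.10.9 in Python 3.11.15.

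Every probe set of the 10 genes is accounted for. Values on each array are given for probe sets with a mean of at least 5 log2. In each pathway list the 3 genes with the smallest F test p and the 1 with the smallest induction p are named. The 10 genes, the lists, the A3 contrast and the rules were chosen with earlier results of these data known. Transgene RNA was not verified on these arrays. Alternatives were the replicate block, the methods' t-test, a mean of at least 5 log2, array medians subtracted, a second quantile normalization, a moderated variance with trend and robust options, cyclic loess, 1 probe set for each symbol, clone without condition, and leaving out arrays or clones. Promoter windows came from a RefSeq table of assembly GRCm38.p6 matched by symbol.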

Additional observations from a re-analysis of the deposited data

Results flagged for a closer look

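On 3 of the 31 probe sets A3 lay on opposite sides of A1 and A4 in the 2 conditions. The share of all probe sets with this pattern was not counted, so the number cannot be read as particular to these genes. The difference between A3 and the mean of A1 and A4 was -0.19 log2 among induced and 0.22 among control arrays for Dusp4 1428834_at. It was -0.16 among induced and 0.21 among control arrays for Spred1 1445228_at, and -0.060 among induced and 0.26 among control arrays for Fgfr2 1443211_at. With 1 array of a clone in each condition the difference between conditions was not tested. The Spred1 and Fgfr2 probe sets are dim, with means of 2.47 and 3.80 log2.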

How the results depend on the processing

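The alternatives left the count of called probe sets at 0 for induction, the replicate block and the methods' t-test included, and at 0 for A1 minus A4. With the replicate block 3 of the 31 probe sets had an unadjusted p under 0.05, against 1 without it (1539 and 676 of all probe sets), and the block changed no call. Rescaling the arrays, trend and robust options, dropping the condition term or dim probe sets gave 10 or 11 F test calls and 11 A3 calls. With 1 probe set for each symbol both counts were 4, of 10 genes. Leaving out 1 array gave 3 to 9 F test calls and 4 to 10 A3 calls. The A3 count was lowest without induced replicate 2 (4 calls), which leaves A3 with 1 array assumed to vary like the rest, and was 7 without induced replicate 1. The F test count was 3 without induced replicate 2, and 4 without induced replicate 1 or control replicate 2. With both control replicate 3 and induced replicate 1 left out, in a fit of clone alone, the F test called 0 and the A3 contrast 4. Spry4 1445669_at was called only without control replicate 2 (-0.73 log2, adjusted p 0.0461 in limma). Calls higher in A3 were 40.7% of all A3 calls, and 34.9% to 46.6% under the other settings.

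No called A3 difference turned its sign. Of the 409 A3 values under alternatives 353 kept direction and side of the threshold, 26 lost their call, 1 gained one and 29 changed sign. Of 170 induction values 35 changed sign, all uncalled. With array medians subtracted the A3 difference was -0.014 log2 for Fgf4 1420085_at, -0.017 for Dusp4, -0.0052 for Fgfr1 1436551_at and -0.0084 for Spred1 1445228_at, and the induction change was 0.022 for Fgf4 and 0.015 for Etv5. With a second quantile normalization and with cyclic loess the A3 difference was 0.047 and 0.040 log2 for Fgf4 1420086_x_at, -0.015 and -0.036 for Dusp4, and -0.015 and -0.020 for Spred1 1445228_at, and with cyclic loess -0.0049 for Fgfr1 1436551_at. The induction change was then -0.0041 and -0.0063 log2 for Spry2 and -0.011 and -0.016 for Spry4. With both control replicate 3 and induced replicate 1 left out the A3 difference was -0.0085 log2 for Fgf4 1420085_at and -0.050 for Etv5 1450082_s_at. The cause was not tested.

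Leaving out single arrays or clones moved the induction change between -0.18 and 0.29 log2 for Spred1, -0.012 and 0.20 for Dusp4, -0.16 and 0.26 for Spry2, -0.42 and 0.30 for Etv4, -0.18 and 0.15 for Etv5, -0.043 and 0.31 for Fgfr2, -0.039 and 0.047 for Fgf4, and -0.11 and 0.11 for Spry4. It moved the A3 difference between -0.037 and 0.070 log2 for Fgf4 1420085_at, -0.059 and 0.052 for Fgf4 1420086_x_at, -0.41 and 0.067 for Etv5 1428142_at, -0.036 and 0.25 for Etv5 1450082_s_at, -0.63 and 0.053 for Spred1 1443652_x_at, -0.16 and 0.21 for Spred1 1445228_at, -0.73 and 0.12 for Spry4 1445669_at, -0.19 and 0.22 for Dusp4, and -0.060 and 0.26 for Fgfr2 1443211_at.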
